A study of Mus musculus with 2 samples.

Results

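Clusters of CTCF regions are described here in CD4+CD8+ (double-positive) thymocytes: runs of 3 or more regions in which each lay at most 5000 bp from the one before. Members were chosen by measured values, namely the positions and widths of CTCF-bound regions in 1 ChIP-seq library. Windows of 25 bp that the authors listed as bound were joined where they touched. Regions of 500 to 1000 bp on autosomes 1 to 19 were kept. These were 27120 of 50386 autosomal regions (53.8%), since 22738 were narrower and 528 wider. Of the kept regions, 2499 lay in 762 clusters of 3 or more. That is 9.21% of kept regions and 4.96% of all autosomal regions. A further 5794 kept regions formed 2897 pairs, and 18827 stood alone. That members lie close together follows from the rule itself, and the counts are given as a description with no test.

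The cells came from C57BL/6 mice aged 4 to 8 weeks that were Rag1 -/- and carried a TCRbeta transgene. Both libraries of the series, the CTCF immunoprecipitate and an input control not analysed here, share this genotype. Rag1 encodes part of the recombinase that assembles antigen receptor genes, and the transgene supplies a rearranged beta chain that lets thymocytes without the recombinase pass to the double-positive stage. The endogenous receptor loci therefore remain in germline order in these cells. The labels do not give the number of mice. Crosslinking was for 10 minutes in 1% formaldehyde. As there was 1 CTCF library, no replicate and no height or read count per region, the depth is unknown, no spread between mice can be given and the labelled cell type could not be checked against marker genes.

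CTCF is a DNA-binding protein with an array of zinc fingers. It halts the cohesin complex as cohesin extrudes chromatin loops, and pairs of CTCF sites often mark loop anchors and the borders of chromosome domains. Several CTCF sites can stand next to each other at such borders. In lymphocytes, CTCF sites at the antigen receptor loci are known to shape how distant gene segments meet during recombination.

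Most clusters were of the smallest size. Clusters of 3 numbered 595 (78.1% of clusters), clusters of 4 numbered 128, clusters of 5 numbered 34, clusters of 6 numbered 3 and clusters of 7 numbered 2. The median span from the first to the last base was 6912.5 bp, with quartiles of 5550 and 8700 bp. Spans ran from 2050 to 23750 bp, and 87 clusters were longer than 10 kb. The median span was 6450 bp for clusters of 3, 8662.5 bp for clusters of 4 and 11687.5 bp for clusters of 5. The clusters spanned 5530 kb in all, and their regions covered 28.9% of that length. Kept regions covered 0.685% of the autosomes up to the last listed positions. The bounds on width and gap by themselves set the coverage of clusters above that value.

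Clusters of 3 or more were more frequent than uniform placement would give. The comparison kept the number and widths of regions in every 1-Mb bin and took their positions within the bin as uniform, which gives an expected number in closed form. Runs were ended at bin edges for it, which left 760 of the 762 clusters. Uniform placement gave 322 clusters, a ratio of 2.36. The exact 95% Poisson interval of this ratio was 2.19 to 2.53, which covers counting error only and takes clusters as independent. The ratio was higher for longer runs. It was 1.35 for pairs (2892 against 2140), 2.18 for clusters of 3 (594 against 273), 3.34 for clusters of 4 or more (166 against 49.6) and 4.55 for clusters of 5 or more (39 against 8.58). In terms of regions, 2492 lay in clusters of 3 or more against 1028 under uniform placement, or 3.79% of kept regions. The ratio depended on the scale at which the density was held: it was 8.61 with whole chromosomes, 2.05 with bins of 0.5 Mb and 1.62 with bins of 0.1 Mb, a size chosen after seeing the data.

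**Figure D1:**
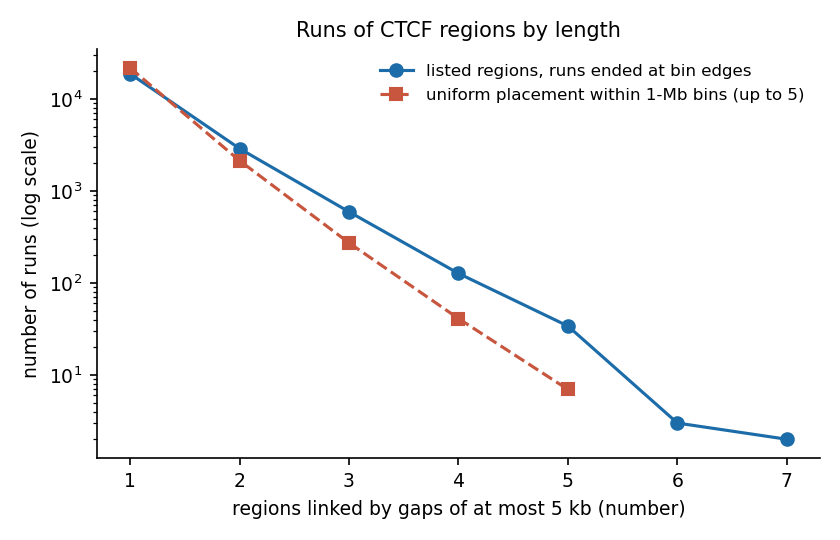
Number of runs of kept CTCF regions (log axis) against the number of regions in the run, for the listed positions (circles) and for uniform placement within 1-Mb bins (squares, given up to 5). The 2 lines part with length: 2892 against 2140 pairs, and 34 against 6.95 runs of 5.

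The ratio to uniform placement was highest where regions were sparse. Unmappable sequence was not taken out of the bins, and its bearing on this ratio was not tested. In 892 bins with 1 to 9 kept regions there were 34 clusters against 2.62 under uniform placement, a ratio of 13. Bins with 10 to 19 kept regions held 157 clusters against 34.1 (ratio 4.61), and bins with 20 to 29 held 213 against 75.5 (2.82). At 30 to 39 kept regions the numbers were 168 and 95 (1.77). The 70 densest bins, with 40 to 75 kept regions, held 188 clusters against 115 (1.63). The share of kept regions that lay in clusters went the other way, from 106 of 3941 (2.69%) in the sparsest of these classes to 634 of 3248 in the densest.

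The linking distance of 5000 bp marked no step in the data. Neighbouring kept regions became steadily fewer with distance, from 1149 gaps of under 1000 bp to 747 of 4000 bp up to 5000 bp and 665 of 5000 bp up to 6000 bp. With a largest gap of 1 kb there were 50 clusters against 17 under uniform placement, and with 2 kb there were 192 against 63.5 (ratio 3.03). With 10 kb there were 1647 clusters, of which 1638 remained after ending runs at bin edges, against 930 (1.76). At 20 kb the ratio was 1.35 and the longest run held 20 regions. Just inside the bound, 81 neighbours lay 4900 to 5000 bp apart, 30 of them in clusters, and just outside it 94 lay 5025 to 5125 bp apart. A bound of 4975 bp gave 760 clusters and one of 5025 bp gave 765. The width bounds weighed more: 92 cluster members were 500 bp wide and 6 were 1000 bp wide, beside 1160 autosomal regions of 475 bp and 48 of 1025 bp. Starting at 475 bp gave 825 clusters and starting at 525 bp gave 695, while ending at 975 or 1025 bp gave 757 or 768.

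**Figure D2:**
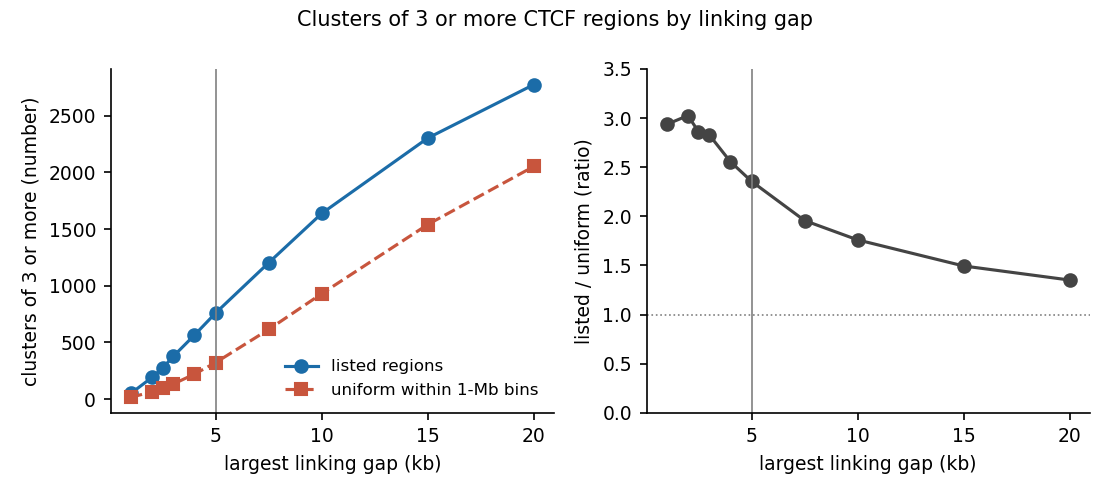
Left, clusters of 3 or more (number) against the largest linking gap (kb), for listed regions with runs ended at bin edges (circles) and uniform placement within 1-Mb bins (squares). Right, the ratio of both, which was 3.03 at 2 kb, 2.36 at the 5 kb used here (vertical line) and 1.35 at 20 kb.

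Within clusters, regions were unevenly spaced. The median gap was 2150 bp (quartiles 1025 and 3425 bp, 1737 gaps), close to the 2125 bp of pairs (975 and 3525 bp, 2897 gaps). Gaps of at most 500 bp made up 13.2% of cluster gaps and 12.5% of pair gaps. In the median cluster the largest gap was 2.49 times the smallest, with quartiles of 1.49 and 5.73 times. No such value was computed for uniform placement, so this describes the clusters only. In 30 clusters no gap was over 1000 bp, and in 131 at least 1 gap was over 4500 bp.

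Cluster members were somewhat wider than kept regions that stood alone. Their mean width was 639 bp (SD 86.5 bp across regions), against 632 bp (SD 86.1 bp) in pairs and 619 bp (SD 80.1 bp) for regions alone, with a median of 625 bp in all of these sets. Regions of 700 bp or more made up 17.6%, 15.9% and 11.3% of these sets, while regions of at most 550 bp numbered 411 of 2499, 1104 of 5794 and 4295 of 18827. The differences in the mean were small beside the spread between regions, and they were not tested, since regions of 1 library are not replicates. Position in the cluster made little difference: the mean was 639 bp for the 1524 end members and 640 bp (SD 86.9 bp) for the 975 inner members. In 16 clusters all members had the same width.

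Regions outside the kept widths also lay inside clusters. In cluster gaps there were 330 of them in 3933 kb, or 0.0839 per kb, and in pair gaps 453 in 6601 kb, or 0.0686 per kb. All autosomes together held 23266 of them in 2470 Mb up to the last listed positions, a far lower density than in either set of gaps. Local density was not matched in this comparison, which sets gaps next to kept regions beside all sequence. In clusters 190 of the 330 (57.6%) were at most 75 bp wide and 10 were wider than 1000 bp. At least 1 such region was held by 220 of the 762 clusters (28.9%), and none held more than 5. Taking each side separately, the next kept region lay at a median of 26.4 kb from clusters, 29.9 kb from pairs and 36.3 kb from regions alone. Of 1524 cluster flanks, 274 were at most 10 kb long.

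The 2 clusters of 7 differed in spacing and in the width of their members. The cluster on chromosome 5 (117943896 to 117960020, 16125 bp) had widths of 575, 625, 650, 550, 725, 625 and 675 bp in order. Its gaps were 2425, 4950, 1200, 150, 500 and 2475 bp, so that the regions of 550, 725 and 625 bp in the middle stood close together. The cluster on chromosome 11 (114510721 to 114534470, 23750 bp) was the longest of all by span. Its widths were 525, 500, 775, 825, 1000, 725 and 650 bp and its gaps 4475, 2575, 4400, 4300, 25 and 2975 bp. A single unlisted window of 25 bp separated the region of 1000 bp, at the upper width bound, from the one of 725 bp after it.

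The clusters of 6 lay on chromosome 10 (74383478 to 74400177), chromosome 7 (29495905 to 29513029) and chromosome 15 (103002805 to 103022004). The last of these, 19200 bp long, also held a region of 1100 bp, 25 bp beyond its second member, that was too wide to be kept. Of the 34 clusters of 5, the shortest lay on chromosome 15 (103170405 to 103178104, 7700 bp), with gaps of 150, 1050, 475 and 3025 bp. It was followed by clusters on chromosome 17 (45715677 to 45723876, 8200 bp), chromosome 7 (81508155 to 81516529, 8375 bp), chromosome 11 (48585021 to 48593445, 8425 bp) and chromosome 5 (134961671 to 134970620, 8950 bp). In the cluster on chromosome 17 the gaps ran from 525 to 1950 bp, while each of the others had at least 1 gap of over 2000 bp. The other clusters with the longest spans were 3 of 5 regions, on chromosomes 14 (55252920 to 55270444, 17525 bp), 11 (117246021 to 117263370, 17350 bp) and 8 (122839349 to 122856673, 17325 bp).

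**Figure D3:**
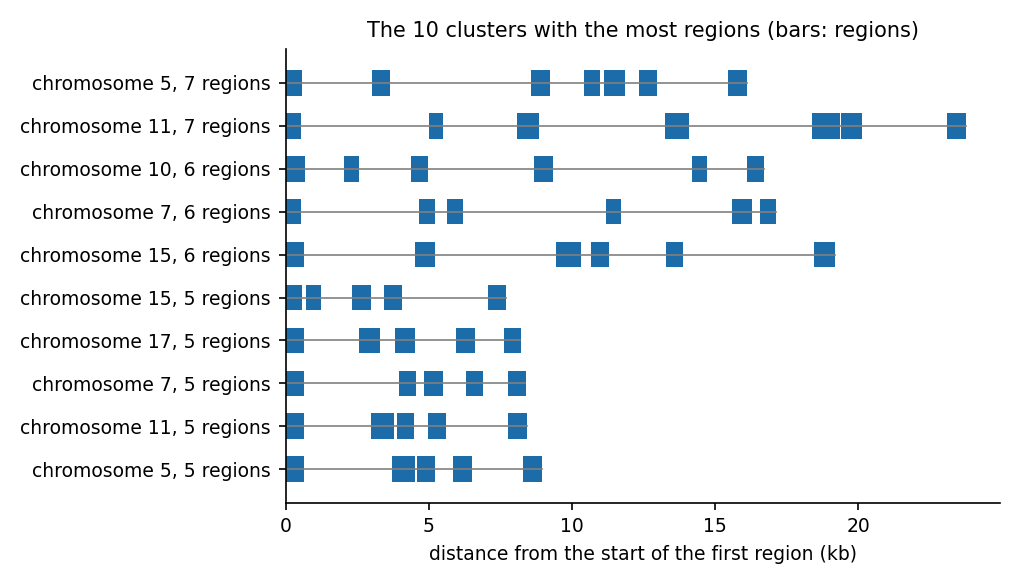
Layout of the 5 clusters of 6 or 7 regions and the 5 shortest of the 34 clusters of 5, drawn to scale from the start of the first region (kb); bars are regions and grey lines the span. The cluster of 7 on chromosome 11 spans 23750 bp, and the cluster of 5 on chromosome 17 packs into 8200 bp.

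The most compact clusters were nearly continuous. On chromosome 6 (70754371 to 70756420) regions of 725, 625 and 650 bp were separated by gaps of 25 and 25 bp, so that 2000 of 2050 bp were covered. On chromosome 3 (51363644 to 51365768) the gaps were 25 and 100 bp. On chromosome 8 (107813174 to 107815348) they were 150 and 150 bp, on chromosome 10 (38889803 to 38892027) 250 and 75 bp, and the cluster on chromosome 1 (65224671 to 65226945) spanned 2275 bp. Gaps this short are within a few windows of the file, and whether such clusters hold separate binding sites or 1 broad enrichment cannot be told apart without heights. After joining windows at most 100 bp apart, there were 716 clusters on the autosomes, with a longest of 7.

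Clusters lay on all 19 autosomes, at 0.308 per Mb. Chromosome 11 carried the most, 78 clusters or 0.640 per Mb (exact 95% Poisson interval 0.506 to 0.799), followed by chromosome 7 with 73 (0.479 per Mb, 0.375 to 0.602). Chromosome 5 had 67 (0.439 per Mb, interval 0.340 to 0.558). All 3 intervals overlapped. These 3 chromosomes held 28.6% of clusters and 22.3% of kept regions. The lowest densities were on chromosome 18 with 13 clusters (0.143 per Mb, 0.0764 to 0.245) and chromosome 16 with 15 (0.153 per Mb, 0.0854 to 0.252). These intervals cover counting error only and take clusters as independent, and chromosomes were not tested against each other. Their density of kept regions also differed, at 18.3 per Mb on chromosome 11, 8.26 on chromosome 18 and 8.80 on chromosome 16.

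The share of kept regions in clusters ran from 5.61% on chromosome 18 and 5.66% on chromosome 16 to 11.8% on chromosome 5 and 12.7% on chromosome 7. All 19 autosomes had more clusters than uniform placement within 1-Mb bins gave, with ratios from 1.80 on chromosome 15 to 5.10 on chromosome 13 and a median of 2.36. Chromosome 13 had 26 clusters against 5.10. Chromosome 11, the richest in clusters, had a ratio of 1.96, while chromosomes 18 and 16, the poorest per Mb, had ratios of 3.21 and 2.47. Across the 19 autosomes the Spearman correlation of kept regions per Mb with this ratio was -0.611.

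**Figure D4:**
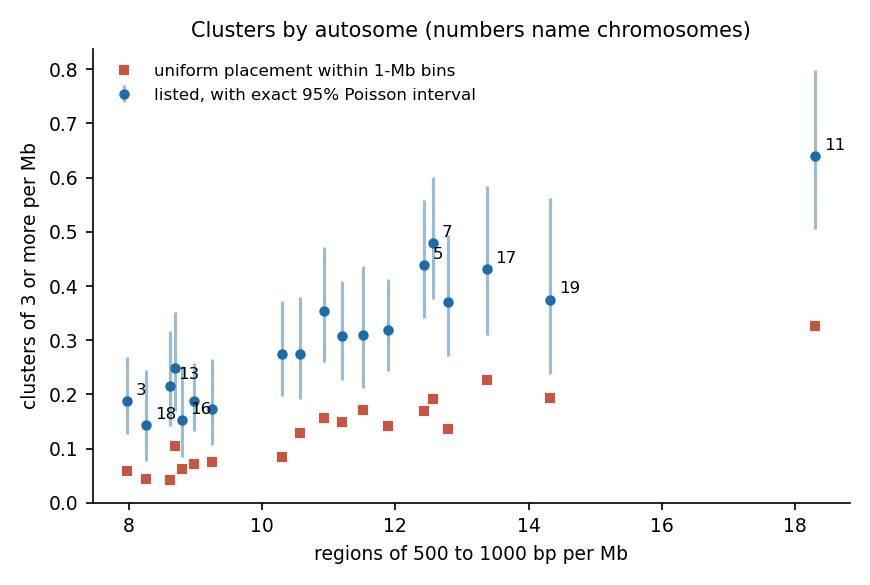
Clusters of 3 or more per Mb against kept regions per Mb for each autosome, with exact 95% Poisson intervals (circles), beside the value from uniform placement within 1-Mb bins (squares). Each circle lies above its square; chromosome 11, at 0.640 per Mb, is highest.

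Of 1990 1-Mb bins with a kept region, 503 (25.3%) held the midpoint of a cluster, and 59 held 3 or more. The 10 bins with the most members, chosen after their values were seen, together held 189 members (7.56%). The bin of chromosome 10 from 79000001 to 80000000 had 7 clusters with 26 of its 70 kept regions (37.1%), against 4.47 clusters under uniform placement, and the next bin had 6 clusters against 5.27. On chromosome 11 the bin from 117000001 had 6 clusters with 22 of 51 kept regions (43.1%), against 2.03, and the bin from 69000001 had 6 against 2.81. The end of chromosome 15 from 103000001, only 383 kb long up to the last listed window, had 18 of 27 kept regions (66.7%) in 4 clusters, against 1.68. These 4 clusters, of 6, 3, 4 and 5 regions, lay between 103002805 and 103178104.

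Neighbouring clusters were a median of 821 kb apart (quartiles 247 and 3182 kb), and 47 of 743 neighbouring pairs of clusters were at most 50 kb apart. The nearest clusters, 7950 bp apart, were on chromosome 10 (80940253 to 80948302 with 4 regions and 80956253 to 80965877 with 3). On chromosome 5 the next nearest were 8150 bp apart (123493696 to 123499720 with 3 regions and 123507871 to 123518145 with 4). At the other extreme, 14 clusters (1.84%) had no other kept region within 100 kb on either side, compared with 105 pairs (3.62%). The most isolated, 3 regions on chromosome 7 (55387480 to 55394254), had none for 350 kb below and 610 kb above.

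The named loci below are 23 windows in mm9 with rounded bounds from general knowledge. No mm9 annotation was used, so clusters are given by window only, with no gene, exon or promoter named for them. A cluster midpoint lay in 11 of these windows, and they held 24 of the 762 clusters. Of 1-Mb bins with a kept region, 25.3% held a cluster midpoint. The windows ran from 0.2 to 3.5 Mb, so numbers of windows with a cluster are not matched for length or density. Shares of kept regions in clusters are to be read against the 9.21% of all autosomes, and most windows held too few regions for a share to be precise.

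Of the 6 antigen receptor windows, which ran from 0.3 to 3.2 Mb, 5 held a cluster, beside 25.3% of 1-Mb bins with a kept region. Tcra/Tcrd, which encodes the alpha and delta chains of the T cell receptor, held 7, all of 3 regions, with 21 of its 118 kept regions (17.8%). Uniform placement of its 118 regions within the window gave 6.44 clusters, so the 7 were near what its density alone gives. Igh, Tcrb, Tcrg and Igk had 1 each, where uniform placement within the window gave 1.76, 0.221, 0.0299 and 0.000809. The last 3 windows held only 20, 7 and 8 kept regions, in 0.8, 0.4 and 3.2 Mb. Density was held over each whole window here and not over 1-Mb bins. In windows with so few regions any cluster far exceeds the expected number. The windows were also chosen with earlier results known, so these values are a description and no test. In Igh, the immunoglobulin heavy chain locus, 3 of 93 kept regions lay in a cluster (3.23%).

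Among the Tcra/Tcrd clusters, 2 pairs had the same gaps within 25 bp. Counted from low to high position, the first (53463795 to 53473769) had widths of 550, 675 and 650 bp and gaps of 3150 and 4950 bp. The third (53774845 to 53784819) had widths of 525, 675 and 650 bp and gaps of 3150 and 4975 bp. The second (53533370 to 53540369) had widths of 625, 625 and 700 bp and gaps of 1100 and 3950 bp, and the fourth (53844345 to 53851369) had the same widths and gaps of 1100 and 3975 bp. The first and the third started 311.05 kb apart and the second and the fourth 310.975 kb apart. A shift of 311 kb, taken from these 2 pairs, therefore places 12 of the 21 members within 100 bp of a listed region by construction, as 6 matched pairs of regions counted from both sides. The other 9 members had none at that shift.

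The remaining 3 clusters of this window matched no other within 25 bp. The sixth (54233870 to 54241544), with widths of 625, 675 and 625 bp, had a first gap of 1050 bp, within 50 bp of the second and the fourth, but a second gap of 4700 bp, which differed from theirs by 750 and 725 bp. The fifth (53959870 to 53969294) and seventh (54352295 to 54361419) both began with widths of 575 and 650 bp, with gaps of 4625 and 2900 bp in the fifth and 4600 and 2575 bp in the seventh, a difference of 325 bp in the second gap, and started 392 kb apart. Whether repeated sequence bears on where reads were placed was not tested.

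**Figure D5:**
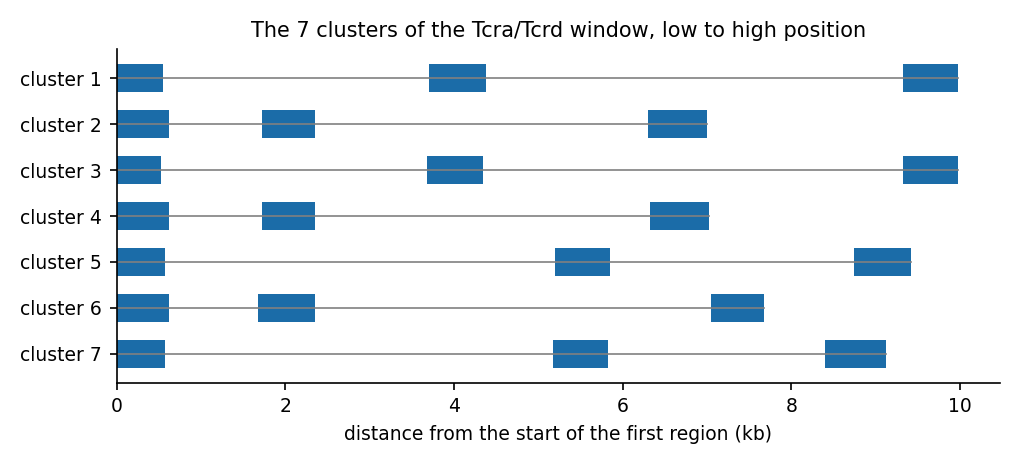
The 7 clusters of the Tcra/Tcrd window in order of position, drawn from the start of the first region (kb); bars are regions. Clusters 1 and 3 share gaps of 3150 bp and 4950 or 4975 bp, and clusters 2 and 4 share gaps of 1100 bp and 3950 or 3975 bp.

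The clusters of all autosomes contained 975 runs of 3 successive regions. Of 2562 pairs of runs at most 2 Mb apart on a chromosome, 2 had both start-to-start distances equal within 25 bp, and both were the Tcra/Tcrd pairs just described. That is 7.81 per 10000, a rate that rests on these 2 pairs. Of 27955 pairs farther apart on 1 chromosome, 3 matched (1.07 per 10000), and of 444308 pairs on different chromosomes, 95 matched (2.14 per 10000).

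At Igh the cluster lay at the low-coordinate end (114453961 to 114462885), where an array of CTCF sites is known to close off the locus. Its kept regions of 675, 675 and 625 bp were separated by gaps of 4625 and 2325 bp. Those gaps held 3 more regions, of 1250, 1275 and 1375 bp, which were above the width bound, so that the rule counts 3 of 6 listed regions there. The rest of the 93 kept regions of the window formed no cluster and 1 pair.

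In Tcrb, the T cell receptor beta locus, regions of 650, 675 and 625 bp formed a cluster (41058746 to 41068670) with gaps of 3300 and 4675 bp. The mice carried a beta chain transgene, and its part in reads at Tcrb was not tested. In Tcrg, the gamma locus, 3 of 7 kept regions lay in a cluster of 3850 bp (19454096 to 19457945), with gaps of 1475 and 425 bp. The second gap held further listed regions of 50, 75 and 25 bp. Whether the members on its 2 sides are separate sites cannot be told without heights. In Igk, the kappa light chain locus, 3 of only 8 kept regions lay in a cluster of 5550 bp (70659146 to 70664695). That cluster lay at the high-coordinate end of the window. Igl, the lambda light chain locus, had 2 kept regions, so no cluster was possible.

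Of the 7 windows around thymocyte genes, which ran from 0.2 to 0.4 Mb, 3 held a cluster, each of 3 regions. At Cd4, which encodes a co-receptor of the T cell receptor, regions of 625, 800 and 625 bp (124806846 to 124813845) had gaps of 2025 and 2925 bp. At Cd8a/Cd8b1, which encode the CD8 co-receptor, regions of 600, 625 and 875 bp (71245196 to 71252820) had gaps of 2825 and 2700 bp. At Bcl11b, which encodes a transcription factor that commits cells to the T lineage, 3 of 5 kept regions (109236836 to 109244885) had gaps of 4575 and 1525 bp. Uniform placement gave 0.324, 0.215 and 0.0340 clusters in these 3 windows. Rag1/Rag2, Cd3e/d/g, Runx1 and Ets1 had 5, 9, 10 and 1 kept regions and no cluster, although Cd3e/d/g held 1 pair. The result for Ets1, which encodes a transcription factor of lymphocytes, rests on the rounded bound: a cluster of 4 regions (32389301 to 32399825 on chromosome 9) ended 175 bp below the window. Of the other windows, 4 had a cluster within 100 kb outside them, at 15.2 kb from Igh, 54.4 kb from Igk, 73.1 kb from H19/Igf2 and 82.8 kb from Cd8a/Cd8b1.

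Of the 9 windows at loci known for CTCF binding, which ran from 0.2 to 3.5 Mb, 3 held a cluster. The major histocompatibility complex held the most, 8 clusters with 30 of 157 kept regions, against 5.23 clusters under uniform placement in the window. They included 2 of 5 regions (34057502 to 34066826 and 34301352 to 34314626) and 2 of 4 (34265102 to 34272676 and 36004427 to 36016926). Of the 8, 5 lay between 34057502 and 34764026. The first of these had gaps of 3575, 500, 25 and 2325 bp, so that the third and the fourth region, of 550 bp each, were split by 1 window.

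In Pcdha/b/g, the clustered protocadherin genes, 4 of 18 kept regions lay in a cluster of 10300 bp at the high-coordinate end of the window (38036832 to 38047131 on chromosome 18). Its gaps were 2300, 2550 and 2800 bp, and uniform placement in the window gave 0.0895 clusters. At Hba, the alpha-globin genes, 3 of 14 kept regions lay in a cluster (32100146 to 32105420) at the edge of the window, with gaps of 200 and 3400 bp, beside 3 pairs, where uniform placement gave 0.817 clusters. The 4 Hox windows, which hold arrays of homeobox genes, had 6, 12, 3 and 6 kept regions (Hoxa, Hoxb, Hoxc, Hoxd) and no cluster, with 1 pair at Hoxb. H19/Igf2, an imprinted gene pair with a CTCF-bound control region, had 6 kept regions of which 4 formed 2 pairs, and Hbb, the beta-globin genes, had 3 kept regions and none linked. Myc, which encodes a growth-promoting transcription factor, had 3 kept regions with 1 pair and no cluster. In the 12 windows without a cluster, uniform placement gave at most 0.278.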

How the data were processed

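Per the submitters' processing notes, Bowtie and the mm9 build were used for the CTCF ChIP-seq reads. Not given in the sources used here are the peak caller, its settings and whether the input served as control. The file the authors deposited lists 912174 windows of 25 bp by chromosome, start and end, with no value per window. Starts were read as counted from 0 and are printed counted from 1. The 1-Mb bins end at the first and last listed position of a chromosome, and their unmappable sequence was not taken out. Under uniform placement the expected number of runs follows from the joint distribution of spacings between uniform points, and the formula was tested on simulated data. Clusters named by position are the 10 with the most regions (ties by shorter span, so 5 of the 34 clusters of 5), the 5 with the shortest and the 5 with the longest span, and those in the fixed windows (at most 5 per window in full). The members, the windows and these rules were chosen with earlier results of these data known. No sequence is shown, because no genome of mm9 was used. Computation was in Python 3.11.15 (SciPy 1.17.1, NumPy 2.4.6, pandas 2.3.3) and plots were made with matplotlib 3.10.9. Alternatives changed the kept widths, the joining of windows, the linking gap, the bins of the placement and the loci included.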

Additional observations from a re-analysis of the deposited data

How the results depend on the processing

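The number of clusters of 3 or more exceeded that of uniform placement in all 12 alternatives run for this ratio (main value 2.36). With a gap of at most 2500 bp there were 275 clusters with 874 regions (3.22% of kept regions), a median span of 4575 bp and a ratio of 2.86. With a gap of at most 10000 bp there were 1647 clusters with 5787 regions (21.3%), a median span of 12000 bp and a ratio of 1.76. With all widths there were 3483 clusters with 12773 regions (25.4%), a median span of 5225 bp and a longest cluster of 15, while the ratio was 2.25. The share in clusters was 10.5% with widths of 400 to 1000 bp, 9.77% with 500 bp and more, and 8.64% after joining windows at most 100 bp apart. The ratio was 2.05 with bins of 0.5 Mb, 3.54 with 5 Mb, 8.61 with whole chromosomes and 1.62 with 0.1 Mb, a size chosen after seeing the data. The other 25 values stayed within 1.5 times of a count, or within the 95% interval of a share, ratio or median span. They include all 6 values without the Tcra/Tcrd and Igh windows, where 754 clusters were left. The number of clusters thus depends on the linking gap and the kept widths by construction. Without heights or depth, a position that is not listed cannot be read as unbound.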

Other observations

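The X, which the rule leaves out, held 11 clusters by the same steps. They contained 35 of its 674 regions of 500 to 1000 bp (5.19%), a lower share than the 9.21% of the autosomes, with no test of the difference. Density was not matched in this comparison. On the autosomes, 1-Mb bins with 1 to 9 kept regions had a share of 2.69%, and all denser classes of bins had higher shares. Uniform placement within 1-Mb bins gave 1.64 clusters, a ratio of 6.72. Of these clusters 9 had 3 regions and 2 had 4. Both clusters of 4 lay 281 kb apart, at 138961411 to 138975310 and 139242886 to 139256810, and had spans of 13900 and 13925 bp. Their gaps differed, at 2325, 4300 and 4850 bp in the first and 4050, 4425 and 2825 bp in the second, so their arrangements differed. The most compact cluster of the X, at 100817611 to 100820360, spanned 2750 bp with gaps of 600 and 325 bp, and another cluster lay below it at 100672636 to 100679835.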
